A study of Arabidopsis thaliana with 6 samples.

Results

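Transcripts of 4 nuclear genes that serve the plastid ribosome, AT4G17560, AT5G47190, AT5G65220 and RH39 (AT4G09730), were followed in rosettes of the model plant Arabidopsis thaliana. Wild-type plants (WT) were set against plants carrying the mutation named atrap, all 3 weeks old, untreated and grown at 23 °C under 12 h of light and 12 h of darkness. Each genotype had 3 Affymetrix arrays, called biological replicates in the labels, so the group sizes were n = 3 and n = 3. The labels give neither the accession of the wild type nor the allele, the locus or the kind of mutation, and they do not say whether leaves of several plants were pooled. In the gene table used here ATRAP is another name for RAP (AT2G31890), which encodes a plastid protein known to act in maturation of the rRNA of the small ribosomal subunit.

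The 4 genes were chosen by their own result in this comparison: each had passed an adjusted p of 0.05 (limma, a linear model with variance shared between probe sets) as a gene higher in atrap. Their differences between the genotypes are therefore given as a description, with no test. A member was a probe set, the group of probes that reads 1 transcript, paired with exactly 1 of the 4 genes. All 4 genes were found, each with a single probe set, 4 of the 22746 probe sets compared and 4 of the 13513 paired with 1 gene. In the gene table none of the 4 overlapped another gene, and each had 1 RefSeq transcript. AT4G17560 and RH39 lie on chromosome 4, AT5G47190 and AT5G65220 on chromosome 5.

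Plastids carry ribosomes of bacterial type. Their rRNA and some of their proteins are encoded in the plastid genome, while the remaining ribosomal proteins are encoded in the nucleus, made in the cytosol and imported. Precursor rRNA is cut, modified and folded with the help of nuclear-encoded nucleases, methyltransferases and DEAD-box helicases, enzymes that unwind RNA using ATP. In leaves these ribosomes make the large subunit of Rubisco and core proteins of the photosystems, so plastid translation is needed for green tissue.

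AT4G17560 and AT5G47190 both encode proteins of the L19 family, and AT5G65220 encodes a protein of the L29 family, all of the large subunit. RH39 is a DEAD-box helicase known to act on the rRNA of that subunit, at a site where the RNA chain is opened. The family names come from general knowledge of Arabidopsis, since the gene table gives these 3 ribosomal genes by locus only. No sequences of these genes or proteins were used here.

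AT4G17560, the first L19 gene, read 11.30, 11.18 and 10.91 in WT replicates 1 to 3 and 11.86, 11.73 and 11.92 in atrap replicates 1 to 3 (log2 level). Every mutant array lay above every WT array, with a gap of 0.44 between the lowest mutant and the highest WT array. The means were 11.13 ± 0.20 and 11.84 ± 0.09 (SD, n = 3 each), a log2 difference of 0.71 with a standard error of 0.12, or 1.64-fold.

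AT5G47190, the second L19 gene, read 11.56, 11.29 and 11.22 in WT and 11.89, 11.81 and 11.85 in atrap (log2 level, replicates 1 to 3). Its groups did not overlap either, but WT replicate 1 came within 0.26 of the lowest mutant array. The means were 11.35 ± 0.18 and 11.85 ± 0.04 (SD, n = 3 each), a log2 difference of 0.50 with a standard error of 0.10, or 1.41-fold. Between single arrays of the genotypes the difference ran from 0.26 to 0.67 for this gene and from 0.44 to 1.01 for AT4G17560, so the ranges of the L19 pair overlap. Whether the pair differ in their change was not tested. Each has its own probe set, and cross-hybridisation between the paralogs was not tested.

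AT5G65220, the L29 gene, read 12.40, 12.45 and 12.34 in WT and 12.80, 12.76 and 12.79 in atrap (log2 level, replicates 1 to 3). The arrays of each genotype lay close together, within 0.11 in WT and 0.04 in atrap, and the gap between the groups was 0.31. The means were 12.40 ± 0.06 and 12.78 ± 0.02 (SD, n = 3 each), a log2 difference of 0.39 with a standard error of 0.07, or 1.31-fold. It had the smallest difference and the smallest spread of the 4 genes.

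RH39, the helicase, read 7.74, 7.27 and 7.44 in WT and 8.25, 8.17 and 8.35 in atrap (log2 level, replicates 1 to 3). Its WT arrays spread over 0.47, the widest range of the 4 genes, and still lay 0.43 or more below the mutant arrays. The means were 7.48 ± 0.24 and 8.26 ± 0.09 (SD, n = 3 each), a log2 difference of 0.77 with a standard error of 0.13, or 1.71-fold. This was the largest difference of the 4.

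**Figure D1:**
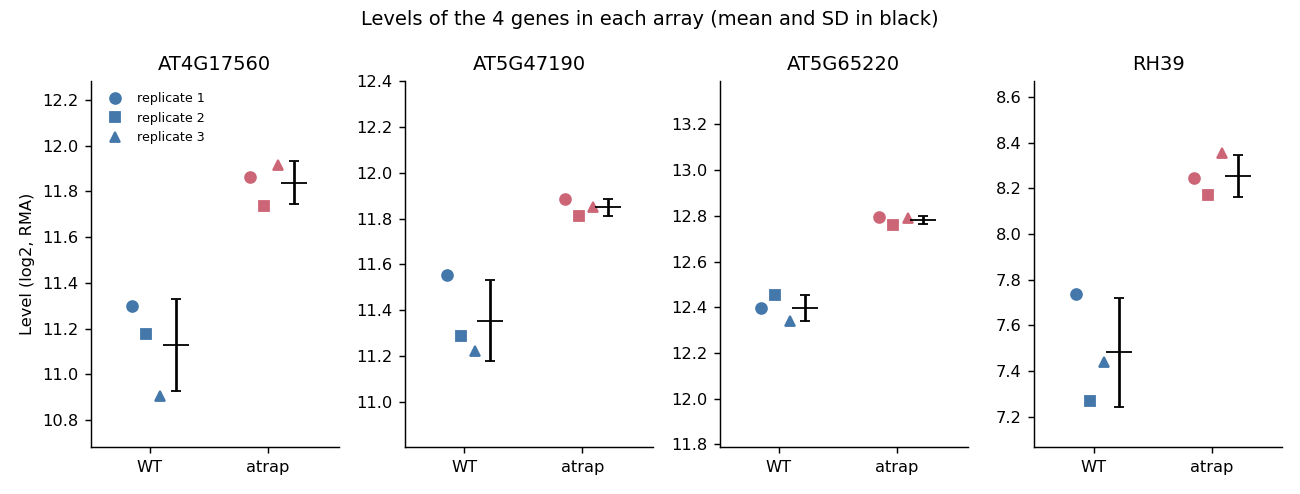
Level of each of the 4 genes in each array (log2, RMA values), with WT in blue and atrap in red, symbols for replicates 1 to 3, and the mean and SD (n = 3) in black. Each panel spans the same number of log2 units. The gap between the lowest atrap and the highest WT array runs from 0.26 for AT5G47190 to 0.44 for AT4G17560.

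The count of 4 of 4 past the threshold follows from how the genes were chosen, and nothing is read from it. Of all 22746 probe sets, 1524 were past it and higher in atrap (6.70%), 1457 were lower (6.41%), and 2981 passed in either direction (13.1%). With each array centred on its median, 61.8% of the calls were higher, against 51.1% as deposited. In 19.1% of all probe sets every mutant array lay above every WT array. The adjusted p values that chose the genes were 0.0137 for AT4G17560, 0.0142 for RH39, 0.0181 for AT5G65220 and 0.0241 for AT5G47190 (limma). Among nuclear genes of plastid ribosomal proteins, the largest adjusted p that passed was the 0.0241 of AT5G47190, and the smallest that did not was the 0.0532 of AT1G64510, with a log2 difference of 0.39 (limma). With WT replicate 2, atrap replicate 1 or atrap replicate 3 left out, 0 of the 4 genes passed in limma, and all 4 log2 differences stayed positive. Over all probe sets these fits gave 438, 350 and 629 calls. Without WT replicate 3, AT4G17560 and RH39 passed.

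The WT arrays varied more than the mutant arrays for all 4 genes, where 56.8% of all probe sets had the larger SD in WT. The spread within genotypes, pooled over both, was 0.16 for AT4G17560, 0.13 for AT5G47190 and 0.18 for RH39 (log2 SD), against a median of 0.12 over all probe sets. For AT5G65220 it was 0.04, and 3.40% of all probe sets had a smaller one. WT replicate 1 was the highest WT array for AT4G17560, AT5G47190 and RH39, and WT replicate 2 for AT5G65220. Among the mutant arrays, replicate 2 read lowest in each of the 4 genes, as it did in 38.8% of all probe sets.

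Differences of similar size fell on both sides of the threshold. AT1G29070, which encodes the plastid protein L34, had a log2 difference of 0.40 and a pooled SD of 0.14, and did not pass (limma, adjusted p = 0.0537). AT5G65220 had a difference of 0.39 with a pooled SD of 0.04, and passed.

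Other nuclear genes of plastid ribosomal proteins came next, to place the 3 chosen ones within their group. Of 38 further genes on the list, 7 had a probe set of 1 gene. All 7 had higher mean levels in atrap, with log2 differences from 0.23 to 0.40 and a median of 0.32, against a median of 0.03 over all probe sets. With the 3 chosen genes counted, 10 genes of this group were measured. In limma 3 of the 10 were past the threshold and higher, where 6.70% of all probe sets were. These were the 3 chosen genes, so the count of 0 among the 7 follows from the choice, and nothing is read from it. All 7 had an unadjusted p under 0.05. Under other settings the count past the threshold among the 7 changed. It was 5 with arrays centred on the median, 5 with an intensity trend, 2 with dim probe sets left out, 7 with array weights and 6 without WT replicate 1. In the same fits, in that order, 8.70%, 6.54%, 9.94%, 12.0% and 8.93% of all probe sets were higher. Whether the 3 chosen genes differ in their change from these 7 was not tested.

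Large subunit genes among the 7 were AT1G29070 (0.40), AT2G43030 (L3, at 0.32), AT4G01310 (L5, at 0.27) and AT3G54210 (L17, at 0.26), all as log2 differences. Small subunit genes were AT1G64510 (S6, at 0.39), AT3G13120 (S10, at 0.34) and AT5G24490 (0.23). The last of these encodes PSRP1, known as a factor that binds resting plastid ribosomes. In all 7 genes every mutant array lay above every WT array, as in 19.1% of all probe sets, but the gap was narrow. For AT5G24490 atrap replicate 2 and WT replicate 1 both read 12.40, and for AT1G64510 the gap was 0.17.

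AT1G64510 read 12.54, 12.35 and 12.16 in WT and 12.71, 12.72 and 12.78 in atrap (log2 level, replicates 1 to 3). As in both L19 genes, WT replicate 1 was the highest and WT replicate 3 the lowest WT array. That order of the WT arrays held in 7 of the 7 further genes. Over all probe sets, WT replicate 1 was the highest WT array in 43.6% and WT replicate 3 the lowest in 39.0%.

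RH39 was then placed among other nuclear genes for maturation of plastid rRNA and assembly of the ribosome. Of 29 further genes on that list 10 were measured, of which 7 rose, 1 fell and 2 did not pass (limma, adjusted p from 0.00525 to 0.0304 over the 7). The share of 70.0% higher stands beside 6.70% of all probe sets. The count past the threshold, 8 in both directions, was 4 with WT replicate 2, atrap replicate 1 or atrap replicate 3 left out in turn. Over all probe sets the 2981 calls became 438, 350 and 629 in these fits. Apart from RAP, the 9 genes had log2 differences from 0.44 to 1.10 with a median of 0.64, and RH39 lay within that range at 0.77.

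The gene that fell was RAP itself, which went from 7.69 ± 0.22 in WT to 6.53 ± 0.19 in atrap (log2 level, SD, n = 3 each; limma, adjusted p = 0.00741). The largest rise was that of AT5G55580, which encodes mTERF9, a plastid protein of ribosome assembly. It read 7.40, 7.38 and 7.05 in WT and 8.27, 8.50 and 8.35 in atrap, a log2 change of 1.10 ± 0.12 (standard error; limma, adjusted p = 0.00583). Its groups lay 0.87 apart, against 0.43 in RH39.

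AT5G46580 encodes SOT1, a pentatricopeptide repeat protein of plastid rRNA processing. It read 8.20, 7.97 and 7.83 in WT and 9.06, 9.01 and 9.03 in atrap, a log2 change of 1.03 ± 0.10 (standard error; limma, adjusted p = 0.00525). Among the genes of this list it had the smallest adjusted p.

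AT3G06980 encodes RH50, a plastid DEAD-box helicase of rRNA maturation like RH39. It read 9.22, 8.74 and 8.84 in WT and 9.85, 9.69 and 9.77 in atrap, a log2 change of 0.84 ± 0.13 (standard error; limma, adjusted p = 0.0121). The order of the WT arrays was that of RH39, with replicate 1 highest and replicate 2 lowest.

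Smaller rises were those of AT5G10910, a methyltransferase of rRNA, at 0.67, AT2G17240 and AT3G24506, the paralogs CGL20A and CGL20B, at 0.64 and 0.63, and AT5G46420, a RimM-like assembly factor, at 0.51 (log2 changes). PAC, needed for plastid development and rRNA maturation, had a log2 difference of 0.44 and an adjusted p of 0.0740 (limma). AT2G25870, which encodes the endonuclease YBEY, had 2 probe sets that part at the threshold. The brighter had a log2 difference of 0.52 and did not pass (limma, adjusted p = 0.0526), and the dimmer had 0.57 and passed (limma, adjusted p = 0.0142).

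**Figure D2:**
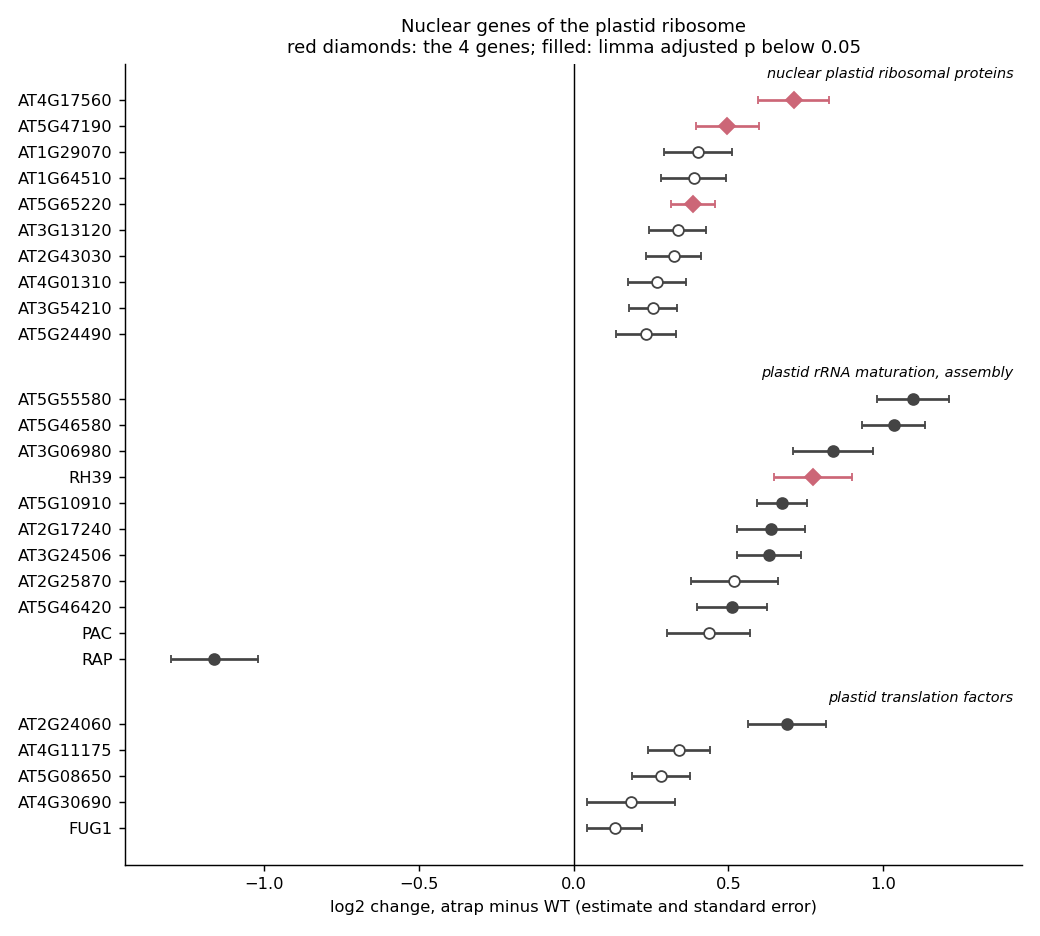
log2 change (atrap minus WT, points) with its standard error (bars) for the measured nuclear genes of plastid ribosomal proteins, plastid rRNA maturation and plastid translation. Red diamonds mark the 4 genes and filled symbols a limma adjusted p below 0.05. The 7 ribosomal protein genes with open symbols run from 0.23 to 0.40, and RAP is the single gene left of 0.

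In the DEAD-box family, 2 further genes with an RH number in the gene table were measured, of 11 listed, and both rose, where 6.70% of all probe sets did. RH50 (AT3G06980), given above, was not among these 2. RH20 changed by 0.27 ± 0.07 (log2, standard error; limma, adjusted p = 0.0468) and AT3G09720, listed as RH57, by 0.49 ± 0.09 (limma, adjusted p = 0.0167). The count was 1 with an intensity trend and 1 with WT replicate 1, WT replicate 3 or atrap replicate 2 left out in turn. It was 0 in limma with any of the other 3 arrays left out. Of all probe sets, 6.54% were higher with the trend, and 0.765% to 8.93% with 1 array left out.

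Plastid translation factors, which work on the finished ribosome, had 5 measured genes of 12. AT2G24060, an initiation factor of the IF3 type, rose by 0.69 ± 0.13 (log2, standard error; limma, adjusted p = 0.0184), from 9.77 ± 0.16 to 10.46 ± 0.20 (SD, n = 3 each). The other 4 had log2 differences from 0.13 for FUG1, the plastid IF2, to 0.34 for AT4G11175, and did not pass. The 1 of 5 past the threshold stands beside 6.70% of all probe sets higher, and the median of the 5 was 0.28. Array weights gave 3 calls and leaving out WT replicate 1 gave 2, while limma gave 0 without WT replicate 2, WT replicate 3, atrap replicate 1 or atrap replicate 3, where 3 genes had an unadjusted p under 0.05 with all arrays. Of all probe sets, 12.0% were higher with array weights and 8.93% without WT replicate 1. In the fits with 0 calls that share was 0.765% to 2.52%.

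The partners of these proteins encoded in the plastid genome, 15 measured genes of the rpl and rps families, had 10 past the threshold, all of these higher, where 6.70% of all probe sets were, and a median log2 difference of 0.39. Leaving out 1 array changed that count to 3 (WT replicate 2), 6 (WT replicate 3), 3 (atrap replicate 1) and 4 (atrap replicate 3). In those fits, in that order, 0.936%, 2.52%, 0.765% and 1.40% of all probe sets were higher. The count was 11 without WT replicate 1 and 10 without atrap replicate 2, where 8.93% and 6.24% of all probe sets were higher. The difference of 0.39 for the L29 gene AT5G65220 lies at that median, and those of the L19 genes lie above it.

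Ribosomal protein genes of the cytosol served as the comparison from another compartment. Of 124 measured genes, 94 rose, 1 fell and 29 did not pass (limma), and 75.8% higher stands beside 6.70% of all probe sets. Their median log2 difference was 0.60, between those of the L19 genes, and 121 of the 124 differences were positive. Of the 124, 41 had a larger difference than AT4G17560, 86 than AT5G47190, 104 than AT5G65220 and 23 than RH39. Leaving out 1 array changed the count past the threshold from 95 to 8 (WT replicate 2), 39 (WT replicate 3), 5 (atrap replicate 1) and 13 (atrap replicate 3). In the same fits the calls over all probe sets fell from 2981 to 438, 1260, 350 and 629. The cytosolic count was 110 without WT replicate 1 and 94 without atrap replicate 2, with 3863 and 2662 calls over all probe sets.

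AT3G57490, a cytosolic S2 gene, had the largest rise, from 7.71 ± 0.14 to 8.92 ± 0.02 (log2 level, SD, n = 3 each), a log2 change of 1.21 ± 0.09 (standard error; limma, adjusted p = 0.00349). AT2G40010, a P0 gene of the ribosomal stalk, rose by 1.10, AT2G20450 (L14) by 1.09 and AT5G22440 (L10a) by 1.08. The 1 gene that fell was AT3G28500, a stalk P2 gene, with a log2 change of -0.74. Cytosolic ribosomal proteins come in families of near-identical genes, so probe sets can read several paralogs, which was not tested. Of the 29 genes not past the threshold, 10 had WT means under log2 6, and 17 of the 29 had an unadjusted p under 0.05. RMA compresses differences at dim levels, and the part of this in the calls was not tested.

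**Figure D3:**
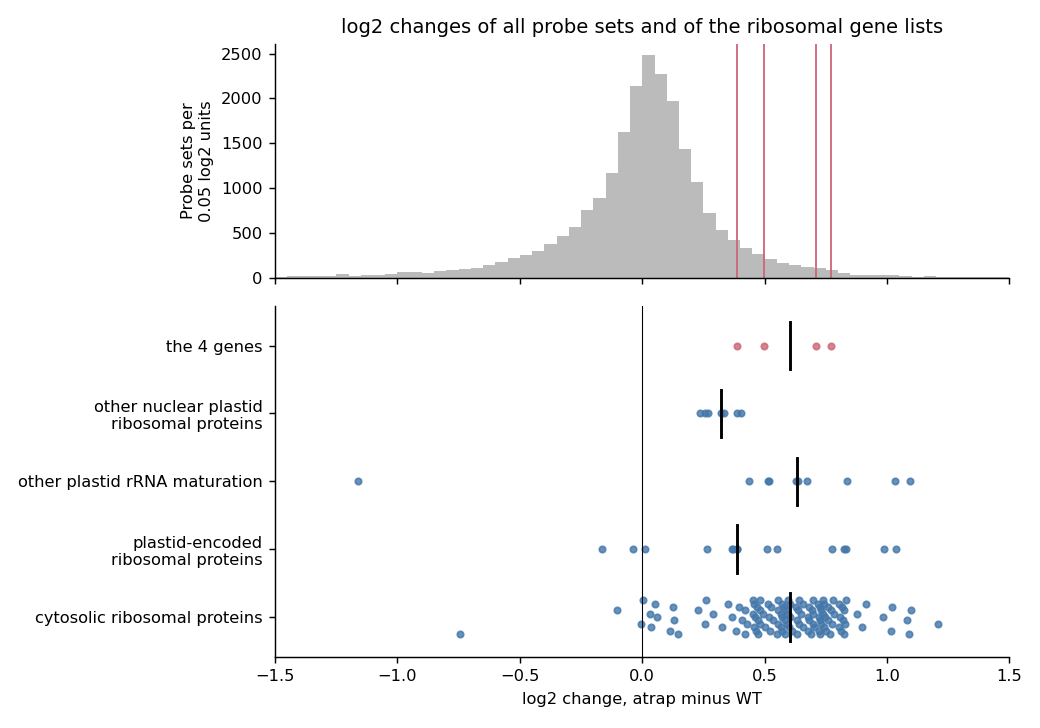
Top, number of probe sets per 0.05 log2 units of change (atrap minus WT) over all probe sets shown between -1.5 and 1.5, with red lines at the 4 genes. Bottom, each measured gene of 5 groups as a point, spread vertically for legibility, and the group median as a black bar. The cytosolic median of 0.60 lies among the 4 genes, and that of the other nuclear plastid ribosomal protein genes, 0.32, lies below them. The 4 genes were chosen for passing the threshold in this comparison, so the latter order follows in part from the choice.

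The same WT array read high in most of these lists. WT replicate 1 was the highest WT array in 116 of the 124 cytosolic genes, in 10 of the 10 further rRNA maturation genes and in 3 of the 4 chosen genes. Relative to the WT mean, the median cytosolic gene stood at 0.24 in WT replicate 1 and at 0.63, 0.48 and 0.71 in the mutant arrays (log2 units). RH39 stood at 0.26 in WT replicate 1, and atrap replicate 2 was its lowest mutant array, as for the cytosolic median. Genes of 1 list are not independent of each other, so these counts describe the arrays.

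**Figure D4:**
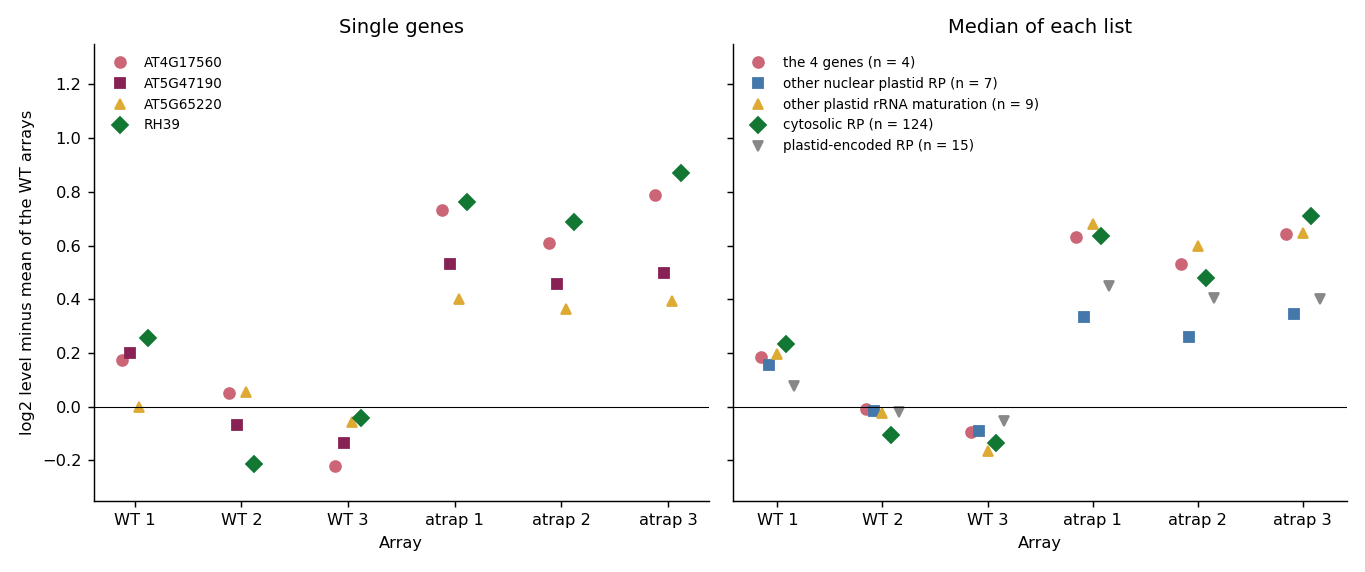
log2 level minus the mean of the 3 WT arrays in each array, for the 4 genes (left) and as the median over each list (right, number of genes in the key, RAP left out of the rRNA maturation list; RP, ribosomal protein). No error bars are shown, since each point is 1 array. WT replicate 1 lies above the other WT arrays for AT4G17560, AT5G47190 and RH39, and all atrap points lie above all WT points of the same gene or list.

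The probe sets with the most similar course over the 6 arrays were sought by the root-mean-square difference of log2 values, each gene centred on its own mean. For AT4G17560 these were GH3.17, an auxin-conjugating enzyme, AT5G20130 and AT4G32915, at 0.04 log2 units each. For AT5G47190 they were AT2G37220, AT5G48220 and AT5G48630, at 0.02 each. For AT5G65220 they were AT4G38780, the plastid maturase gene matK and AT1G36310, at 0.03 each. For RH39 they were AT5G67510 at 0.03 and AT5G61170 at 0.04, both on the cytosolic ribosomal protein list (L26 and S19), followed by AT1G48460 at 0.05.

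Close courses were common. Of 13512 other probe sets of 1 gene, 92 lay within 0.1 of AT4G17560, 308 of AT5G47190, 499 of AT5G65220 and 87 of RH39. The L19 genes differed from each other by 0.13, and AT5G47190 ranked 224 of 13512 by nearness to AT4G17560. The course over 6 arrays of both genotypes includes the difference that chose the genes.

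In the genome order of the gene table, the nearest genes on each side were examined, 16 loci around the 4 genes, of which 4 had a probe set of 1 gene and 3 passed, where 13.1% of all probe sets did. AT4G17540, near AT4G17560, rose by 0.61 ± 0.10 (log2, standard error; limma, adjusted p = 0.0136). Around AT5G47190, AT5G47210 rose by 0.64 ± 0.11 (limma, adjusted p = 0.0150), while AT5G47180, next to it on the other side, had a log2 change of -0.45 ± 0.09 (limma, adjusted p = 0.0237). AT4G09710, an annotated pseudogene near RH39, had a log2 difference of 0.17 and did not pass (limma, adjusted p = 0.227). Leaving out WT replicate 2, atrap replicate 1 or atrap replicate 3 gave 0 calls of these 4 in limma, and leaving out WT replicate 3 gave 2. Calls over all probe sets were 438, 350, 629 and 1260 in these fits, against 2981.

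Arrays of both genotypes read high for photosynthetic leaf markers: RCA, Rubisco activase, ran from 14.85 to 14.94 and PRK, phosphoribulokinase, from 13.86 to 13.94 over the 6 arrays, 2 measured of 11 listed. Their summed level was 28.76 to 28.87 in WT and 28.75 to 28.85 in atrap. RCA lay near the highest value of the data, 15.01, so its close readings need not mean equal levels. The root markers EXPA7 and EXPA18, 2 measured of 6, summed to 10.95 to 11.14 in WT and 11.17 to 11.27 in atrap. The 2 genes went opposite ways, with log2 differences of 0.24 for EXPA7 and -0.05 for EXPA18. Neither passed (limma, adjusted p = 0.102 and 0.765), and their WT means of 5.18 and 5.84 were dim. Of the senescence markers 1 of 8 was measured, WRKY53, at 6.23 to 8.69 in WT and 4.74 to 5.12 in atrap. Its log2 change was -2.54 (limma, adjusted p = 0.0263), with a pooled SD of 0.88. Without WT replicate 2, atrap replicate 1 or atrap replicate 3 it did not pass (limma, adjusted p from 0.0871 to 0.0977). Markers of dividing cells (0 of 11), phloem and guard cells (0 of 4) and flower and seed (0 of 4) had no probe set of 1 gene here. The part of leaf age, cell makeup or growth in these differences was not tested, and more cells of a type cannot be told apart from more RNA per cell in whole leaves.

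Array medians lay between 6.50 and 6.57 (log2). They averaged 6.55 ± 0.02 in WT and 6.52 ± 0.01 in atrap (SD, n = 3 each, exact permutation p = 0.1), with all 3 mutant medians below all 3 WT medians. Poly-A spike-ins, bacterial transcripts used as labelling controls, averaged 6.56 ± 0.13 in WT and 6.22 ± 0.07 in atrap (27 probe sets, SD, n = 3 each, exact permutation p = 0.1, two-sided, and 0.1 is the lowest p this design can give). All 3 mutant arrays read below all 3 WT arrays. The actin 3-prime minus 5-prime difference was 2.65 ± 0.04 and 2.29 ± 0.01 (log2, SD, n = 3 each, exact permutation p = 0.1). The same difference for ubiquitin went the other way, 0.85 ± 0.06 in WT and 0.97 ± 0.03 in atrap (exact permutation p = 0.1, n = 3 each), and for GAPDH it was 0.34 ± 0.07 and 0.32 ± 0.05 (exact permutation p = 0.6, n = 3 each). Hybridisation spike-ins averaged 10.39 ± 0.38 in WT, where replicate 1 read 9.95, and 10.41 ± 0.03 in atrap (exact permutation p = 1.0, n = 3 each). In the mutant arrays, where the 4 genes read higher, the array medians and the poly-A and actin measures were lower. The ubiquitin measure was higher, and the part of these measures in the differences was not tested.

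**Figure D5:**
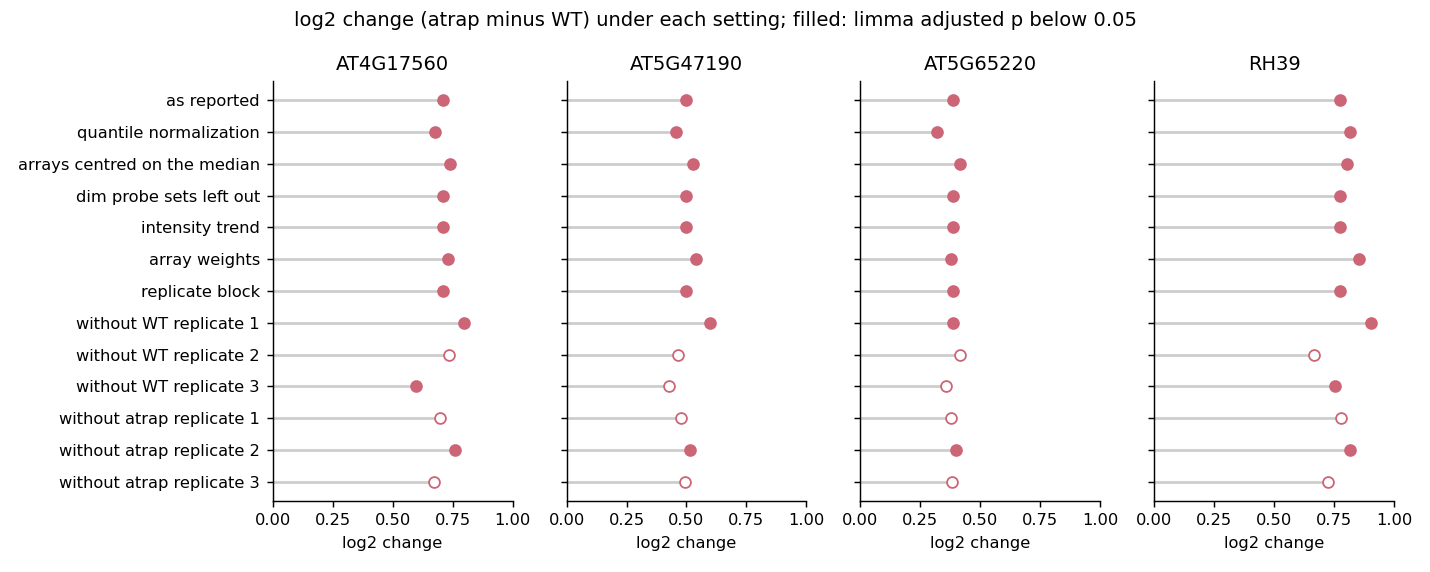
log2 change (atrap minus WT) of each of the 4 genes as reported and under each other setting of the fit, with grey lines from 0 and filled points for a limma adjusted p below 0.05. All changes are positive, from 0.32 for AT5G65220 after quantile normalization to 0.90 for RH39 without WT replicate 1, and open points appear only where an array was left out.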

How the data were processed

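Leaf RNA was measured on Affymetrix arrays, 3 per genotype. The authors deposited 1 log2 value for each probe set and array. Per the submitters' processing notes these came from RMA. Software and version: not given in the sources used here. Values from 3.12 to 15.01 fit a log2 scale. RMA equalises arrays, so a shift of all transcripts would be removed, and dim differences are compressed. Precision is limited by the number of arrays.

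All 22746 probe sets without the 64 controls were fitted with limma 3.58.1 in R 4.3.3 (lmFit, eBayes, two-sided, Benjamini-Hochberg over all), with no further normalization or filter. The p-values measure the spread between these arrays, whose plants the labels call biological replicates. Names came from the array's gene table (13513 probe sets with 1 gene, 503 with several, 8730 with none listed) and a RefSeq table of TAIR10.1, matching 13436, used also for gene order. For genes with several probe sets the brightest stood in lists.

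Members and lists were chosen with earlier results of these data known. Lists were written by locus from general knowledge, except RH helicases, plastid-encoded genes and neighbours, which came from the RefSeq table. Helicases were found there by RH number, plastid-encoded genes by rpl or rps symbol and neighbours by gene order. The cytosolic list was added once the RefSeq table was seen to hold no descriptions, and mitochondrial ribosomal proteins were not analysed here. Named were the 4 genes, the measured plastid ribosomal protein genes, up to 4 members past the threshold per other list (or 2 with the smallest p), RAP, neighbours (2 loci per side) and the 3 most similar probe sets. Further rRNA maturation genes, AT3G28500, FUG1, AT4G11175 and PAC were chosen after their values were seen, and plastid-encoded genes are given as counts.

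On simulated data for the atrap and WT comparison (22746 probe sets), limma found 30.0% of changes of 0.5 and 81.5% of changes of 1 (log2), with 3.48% false calls. Each simulated run changed 200 probe sets and drew independent normal noise. In the data 13.1% of probe sets were called, and genes of 1 list moved together between arrays. The simulated rates therefore need not hold for the data. Alternatives were quantile normalization, median centring, leaving out the dimmest 30% of probe sets, an intensity trend, array weights, a replicate block, an adjusted p of 0.01 and leaving out each array. Summaries used Python 3.11.15, numpy 2.4.6 and pandas 2.3.3, and figures matplotlib 3.10.9.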

Additional observations from a re-analysis of the deposited data

How the results depend on the processing

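None of the 4 genes changed direction in any of the 12 other fits, and AT5G65220 moved most relative to its spread, to a log2 difference of 0.32 with quantile normalization against 0.39. Leaving out 1 array gave 0.60 to 0.80 for AT4G17560, 0.43 to 0.60 for AT5G47190, 0.36 to 0.41 for AT5G65220 and 0.67 to 0.90 for RH39. All 4 passed in the 6 fits that kept every array, 0 passed at an adjusted p of 0.01 in limma (all 4 had an unadjusted p under 0.05), and 0 to 4 passed with 1 array left out. The 2981 calls over all probe sets became 5325 with array weights, 350 at an adjusted p of 0.01 and 350 to 3863 with 1 array left out. The stricter threshold lowers counts by construction. Leaving out an array lowered this count in 5 cases and raised it without WT replicate 1, and for these and the other shifts the cause was not tested.

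With 1 array left out, counts past the threshold ran from 0 to 6 for the other nuclear plastid ribosomal protein genes, 4 to 10 for the further rRNA maturation genes, 0 to 2 for translation factors, 0 to 1 for RH helicases, 5 to 110 for cytosolic ribosomal protein genes, 3 to 11 for plastid-encoded ones and 0 to 3 for neighbours. Over all probe sets the counts ran from 350 to 3863 in the same fits. The other nuclear plastid ribosomal protein genes had 0 calls in limma, which follows from how the 4 genes were chosen. They had 5 with median centring, 2 without dim probe sets, 5 with an intensity trend and 7 with array weights. Of all probe sets 8.70%, 9.94%, 6.54% and 12.0% were higher in these fits, in that order. Translation factors had 3 with array weights, and RH helicases 1 with an intensity trend. The lists other than the cytosolic one, with plastid-encoded genes, neighbours and markers and without the 4 chosen genes, held 48 measured genes. Of these 48, 25 were past the threshold, of which 18 lost it in at least 1 other fit. In limma 0 results reversed.

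The replicate block gave 2101 calls, 1931 of them shared with the 2981, kept all 4 genes past the threshold, and left 1 of the 2 RH helicases and 2 of the 4 neighbours. The correlation between the deviations of WT and atrap arrays with the same number was 0.13, 0.02 and -0.15, and 1 of 3 arrays of each genotype deviated most like its own number, so the numbers were not taken as pairs. Motif searches in promoters were not run, since no promoter sequences were used here.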
